A study of Mus musculus with 9 samples.

Results

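The 9 genes described here encode the proteases and the reductase that unfold, cut and trim protein for presentation on MHC class II: Prss16, Ctsl, Ctss, Ctsb, Ctsd, Ctsh, Ctsz, Lgmn and Ifi30. They were picked by symbol as the endosomal enzymes of that pathway, and all 9 were found among the 38720 genes of the table. Polyadenylated RNA of sorted mouse thymic epithelial cells (TEC) had been counted in 20 libraries of 6 groups. The gate for cortical cells (cTEC) took CD45-, EpCAM+, MHC class II+ cells that were Ly51+ and UEA1-, and the gate for medullary cells (mTEC) took those that were Ly51- and UEA1+. In the transgenic set a Foxn1 BAC transgene, marked by a FLAG tag, was carried on the nude background, so that the transgene is the source of functional FOXN1. It held 3 cTEC and 2 mTEC libraries from heterozygous mice and 3 cTEC and 2 mTEC libraries from homozygous mice. In the deletion set all mice were homozygous for beta5t-rtTA and for Foxn1 fl/fl and all had received doxycycline 72 h before. Its 5 control cTEC libraries lacked the tetO-Cre transgene, and its 5 Foxn1-deleted cTEC libraries were heterozygous for it, which removes exons 7 and 8 of Foxn1 where beta5t-rtTA is active. Beta5t is a proteasome subunit of cTEC, so this design acts on cortical cells. The sources used here give neither mouse ages nor whether the libraries of a group came from separate animals. The p-values therefore measure the spread between these libraries, which may be technical.

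Class II molecules are loaded in endosomes and lysosomes with peptides that these enzymes make from endocytosed or autophagic protein. The same enzymes cut the invariant chain, which blocks the class II groove until it is degraded, and the last step of that degradation is known to rest on cathepsin L in mouse cTEC and on cathepsin S in dendritic cells, B cells and macrophages. The thymus-specific serine protease Prss16 and cathepsin L are known as cortical enzymes that shape the peptides on which CD4 T cells are positively selected. FOXN1, the forkhead factor missing in nude mice, is required for both cTEC and mTEC to develop.

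Levels are given as CPM, each gene's share of a library's counts scaled to a fixed total, which depend on transcript length, so levels were compared between libraries and not between genes. A gene was called where the adjusted p of edgeR's quasi-likelihood test, taken over all genes tested, was under 0.05. Library totals ran from 20719630 to 22372633 counts. No pair of libraries agreed within sampling noise: the chi-square per gene between libraries of a group was 3.65 or more, and it reached 120.7 in control cTEC. Foxn1 itself was at 1144 to 1209 CPM in heterozygous and 1299 to 1484 CPM in homozygous transgenic cTEC, and at 488 to 502 and 307 to 329 CPM in the mTEC of those genotypes. It was at 351 to 579 CPM in control and 361 to 538 CPM in deleted cTEC; these are counts over the whole gene, which do not check the loss of 2 exons. Foxn1 RNA thus ran with the number of transgene copies in cTEC (log2 fold change -0.36 ± 0.06, edgeR adjusted p = 4.45e-04) and against it in mTEC, where it was higher in heterozygous cells (0.66 ± 0.08, adjusted p = 1.68e-05). Dose and copies therefore mean the labelled zygosity of the transgene, and neither a counted copy number nor the level of Foxn1 RNA. Changes with dose are heterozygous minus homozygous, so a fall with dose means a lower level in heterozygous cells. The sorted cells carried several markers of their label, though not every one. Epcam was at 251 CPM or more in every library. The medullary regulator Aire was at 999 to 1188 CPM in mTEC and at most 16.3 CPM in cTEC. Of 13 mTEC markers 13 were higher in mTEC than in cTEC of homozygous mice (43.2% of all genes). In heterozygous mice 12 were higher (40.4% of all genes) and 1 lower. Some were well above 0 in cTEC. Krt5 was at 496 to 591 CPM in heterozygous cTEC and 1801 to 1868 CPM in heterozygous mTEC. Ccl21a was at 231 to 1151 CPM in control and 112 to 1048 CPM in deleted cTEC, against 1597 to 2068 CPM in mTEC. Enpep, which encodes the Ly51 of the gate, was at 89.0 to 173 CPM in cTEC and at 21.5 to 35.0 CPM in mTEC. Psmb11, which encodes beta5t, was an exception: it was at 961 to 1053 CPM in homozygous transgenic cTEC but at 0.410 to 1.79 CPM in control cTEC of the deletion set, whose labels place rtTA at that locus. In bulk libraries fewer cells of a type and less RNA per cell cannot be told apart, and this holds for every value below. Levels of the transgenic and the deletion set come from different mice, so a difference in level between the sets and a difference between the experiments cannot be told apart.

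With fewer transgene copies all 9 genes changed in cTEC: Prss16, Ctsl, Ctss, Ctsd, Lgmn and Ifi30 were lower in heterozygous cells, and Ctsb, Ctsh and Ctsz were higher. Of all genes tested in that comparison 42.8% were called, 21.9% lower and 20.9% higher. The groups did not overlap for any of the 9, which held for 54.7% of all genes. In mTEC 8 of the 9 were lower in heterozygous cells and none was higher, where 59.7% of all genes were called, 30.8% lower and 28.9% higher. All 9 were again apart between the groups, as were 80.1% of all genes. Deletion of Foxn1 for 72 h lowered 2 of the 9, Prss16 and Ctsl, where 1.97% of all genes were called, 1.69% lower and 0.282% higher. Between the compartments 8 of the 9 differed in homozygous mice, 5 higher and 3 lower in mTEC, where 82.6% of all genes were called, 43.2% higher and 39.4% lower. In heterozygous mice 8 differed as well, 4 in each direction, where 72.0% of all genes were called, 40.4% higher and 31.6% lower. In both genotypes the compartments did not overlap for any of the 9, which held for 85.5% of all genes in homozygous and 81.6% in heterozygous mice. The shares of all genes called are high in each comparison of the transgenic libraries, so the size of each change says more than the count of calls. Over the 9 genes the median log2 fold change was -0.80 for dose in cTEC, -0.63 for dose in mTEC and 0.02 for deletion. Over all genes tested it was 0, 0.01 and 0.01. With raw totals in place of TMM factors the median of all genes moved by over 0.1, from 0 to 0.11 for dose in cTEC and from 0.04 to 0.28 for the compartments in homozygous mice.

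**Figure D1:**
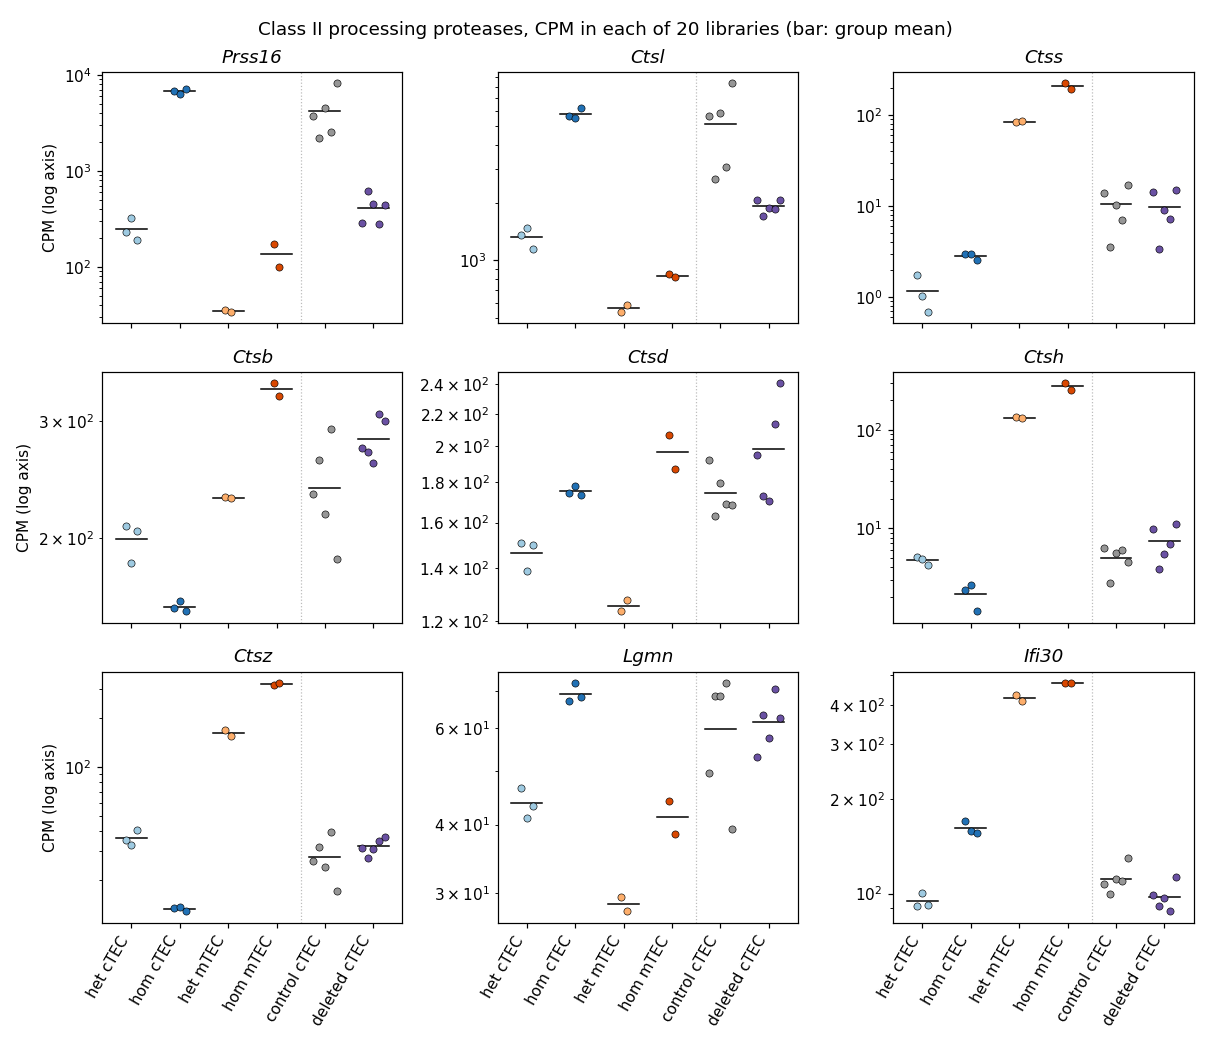
CPM of each of the 9 genes in each of the 20 libraries, on a log axis with its own range per gene; points are libraries, bars are group means, and the dotted line parts the transgenic from the deletion set. Prss16 and Ctsl stand highest in homozygous and control cTEC, and Ctss, Ctsh, Ctsz and Ifi30 stand highest in the 4 mTEC libraries.

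Prss16 (chromosome 13, 22002176 to 22009741, RefSeq GRCm38.p6) encodes the thymus-specific serine protease. In homozygous cTEC it was at 6773, 6330 and 7107 CPM, and in heterozygous cTEC at 231, 319 and 191 CPM. The fitted difference was a 29.9-fold fall (log2 fold change -4.90 ± 0.22 SE, edgeR adjusted p = 1.71e-09). Homozygous mTEC had 174 and 98.8 CPM and heterozygous mTEC 35.2 and 34.03 CPM, a log2 fold change of -1.96 ± 0.25 with dose (adjusted p = 2.61e-05). In both compartments each heterozygous library lay below each homozygous one. The change in mTEC was smaller than that in cTEC by 2.95 ± 0.31 on the log2 scale (interaction, adjusted p = 8.96e-06), in a test that called 6 of the 9 genes, 3 in each direction, and 42.5% of all genes, 25.2% higher and 17.2% lower.

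In the deletion set the 5 control libraries ranged from 2177 to 8183 CPM of Prss16, with a median of 3743. The 5 Foxn1-deleted libraries ranged from 280.3 to 615 CPM, with a median of 438. The groups did not overlap, which held for 5.94% of all genes tested. Prss16 fell by 3.40 ± 0.41 log2, or 10.5-fold (edgeR adjusted p = 0.00876), and kept its call without any 1 of the 10 libraries (adjusted p from 0.00201 to 0.0486). Its mean in deleted cTEC, 413 ± 139 CPM (SD, n = 5), overlapped in range with heterozygous transgenic cTEC, 247 ± 65.5 CPM (n = 3). The order of the groups ran from homozygous and control cTEC, whose ranges overlapped, to deleted and heterozygous cTEC, whose ranges overlapped, and then to homozygous and heterozygous mTEC, each below the last. The span from the highest to the lowest group mean was 195-fold.

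Ctsl (chromosome 13, 64361890 to 64370772) encodes cathepsin L, a cysteine endopeptidase of the papain family. In homozygous cTEC it was at 5672, 5533 and 6199 CPM and in heterozygous cTEC at 1361, 1468 and 1153 CPM. The log2 fold change with dose was -2.26 ± 0.09 in cTEC (4.79-fold lower, adjusted p = 6.78e-10) and -0.54 ± 0.11 in mTEC (1.45-fold lower, adjusted p = 8.10e-04). The mTEC libraries themselves were at 849 and 818 CPM in homozygous and 541 and 587 CPM in heterozygous mice. The mTEC call was lost (adjusted p = 0.268) when all 20 libraries shared 1 fit. The change of Ctsl with copy number was smaller in mTEC than in cTEC by 1.72 ± 0.14 log2 (interaction, adjusted p = 9.34e-07). Foxn1 RNA was higher in heterozygous than in homozygous mTEC, and its part in this was not tested. Ctsl was higher in cTEC in both genotypes: the log2 fold change of mTEC over cTEC was -3.04 ± 0.11 in homozygous and -1.32 ± 0.10 in heterozygous mice.

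Control cTEC of the deletion set had 5616, 2662, 5814, 3060 and 8350 CPM of Ctsl in libraries 1 to 5, and Foxn1-deleted cTEC had 2055, 1694, 1884, 1847 and 2066 CPM. Deleted libraries were close to each other, with a coefficient of variation of 8.15%, while control libraries varied by 45.4%, and the groups did not overlap. Ctsl fell by 1.46 ± 0.30 log2 (2.74-fold, edgeR adjusted p = 0.0364). That call was lost without control library 1 or 3 or any 1 deleted library, with an adjusted p of 0.0721 to 0.119 and a log2 fold change of -1.40 to -1.49.

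Prss16 and Ctsl varied together among the control libraries. Control libraries 2 and 4 were lowest and library 5 highest in both genes. This was not particular to them: 11 cTEC markers summed to 10860, 7352, 12775, 7985 and 18708 CPM in control libraries 1 to 5. Thymocyte markers were likewise lowest in libraries 2 and 4 and highest in library 5. The ratio of Prss16 to Ctsl counts stayed between 0.666 and 0.980 in all 5 control libraries. In the deleted libraries the ratio was 0.138 to 0.363, below every control library. Heterozygous cTEC had a ratio of 0.166 to 0.218 and homozygous cTEC one of 1.14 to 1.19. A ratio within a library does not depend on the scaling between libraries. The changes of deletion and of dose in cTEC were also compared directly. The fall with lower dose was larger by 1.51 ± 0.51 log2 for Prss16 (adjusted p = 0.0901, 95% interval 0.44 to 2.58) and by 0.81 ± 0.38 for Ctsl (adjusted p = 0.252, 0.01 to 1.62), and neither difference was called. Without control library 5 both were called (1.91, adjusted p = 0.00504, and 1.08, adjusted p = 0.0334), and DESeq2 called that of Prss16 (adjusted p = 0.0325). This comparison called 4 of the 9 genes, 3 higher and 1 lower, and 6.67% of all genes, 3.14% higher and 3.53% lower.

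**Figure D2:**
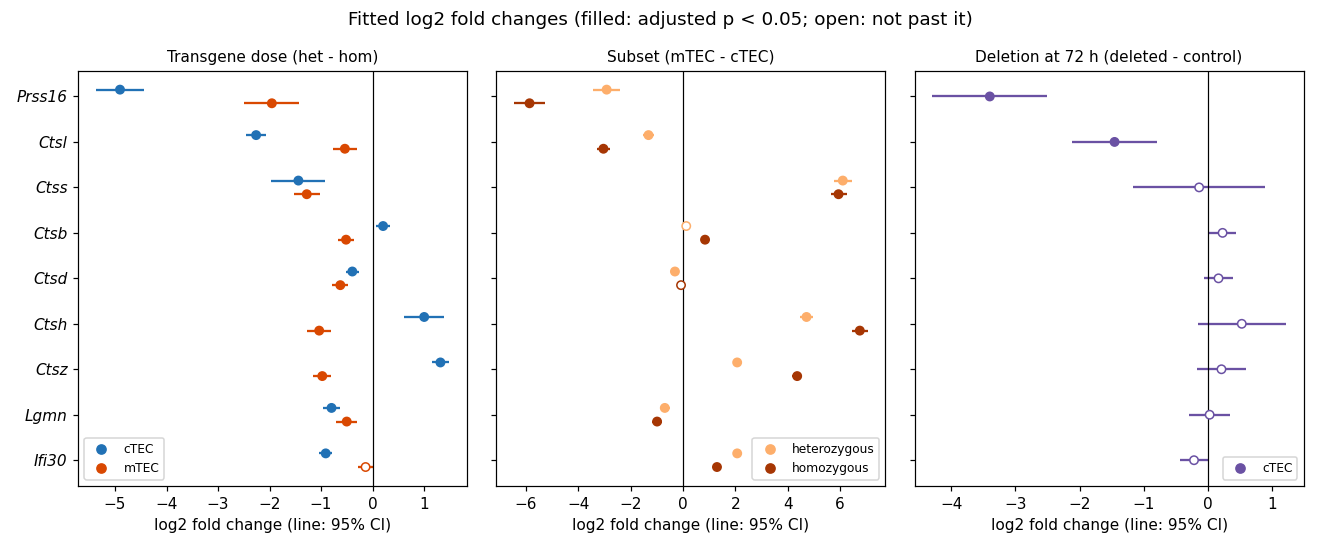
Fitted log2 fold changes of the 9 genes with 95% confidence intervals, for transgene dose (left), compartment (middle) and deletion (right); filled points passed an adjusted p of 0.05 and open points did not. Ctsb, Ctsh and Ctsz lie right of 0 for dose in cTEC and left of 0 for dose in mTEC.

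Ctss (chromosome 3, 95526786 to 95556405) encodes cathepsin S, the papain-family endopeptidase that finishes invariant chain cleavage in most antigen-presenting cells. It was at 224 and 192 CPM in homozygous mTEC and at 83.3 and 85.5 CPM in heterozygous mTEC. In cTEC of the same genotypes it had only 54 to 66 and 15 to 38 counts per library, or 2.57 to 2.99 and 0.688 to 1.74 CPM. The mTEC excess was 61.5-fold in homozygous mice (log2 5.94 ± 0.14, adjusted p = 3.59e-13) and 68.8-fold in heterozygous mice (6.10 ± 0.16, adjusted p = 1.89e-12). With dose the log2 fold change of Ctss was -1.28 ± 0.12 in mTEC (adjusted p = 2.20e-06) and -1.44 ± 0.24 in cTEC (adjusted p = 2.68e-04). Both calls were lost when all 20 libraries shared 1 fit (adjusted p = 0.0863 and 0.1248). No difference between these changes was called by the interaction test (0.16 ± 0.27, 95% interval -0.43 to 0.76, adjusted p = 0.674).

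No change in Ctss was called with deletion of Foxn1. Control libraries had 14.1, 3.56, 10.3, 7.07 and 17.2 CPM and deleted libraries 14.2, 3.33, 8.95, 7.21 and 15.0 CPM, so that libraries of the same number were close to each other and both libraries numbered 2 were lowest. The log2 fold change was -0.14 with a 95% interval of -1.17 to 0.89 (adjusted p = 0.899), which is wide. That fit did not pair libraries by number, so the interval holds the spread between numbers.

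The ratio of Ctsl to Ctss counts within a library, the contrast for which cortex and medulla are known, ranged from 1850 to 2414 in homozygous cTEC and from 784 to 1675 in heterozygous cTEC. It was 3.79 to 4.26 in homozygous and 6.50 to 6.87 in heterozygous mTEC. Control cTEC had 399 to 749 and deleted cTEC 138 to 509, and these last ranges overlapped. These ratios of counts carry the lengths of both transcripts, so only their differences between libraries can be read. The mean of the log2 ratio was 10.99 in homozygous cTEC and 2.01 in homozygous mTEC.

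**Figure D3:**
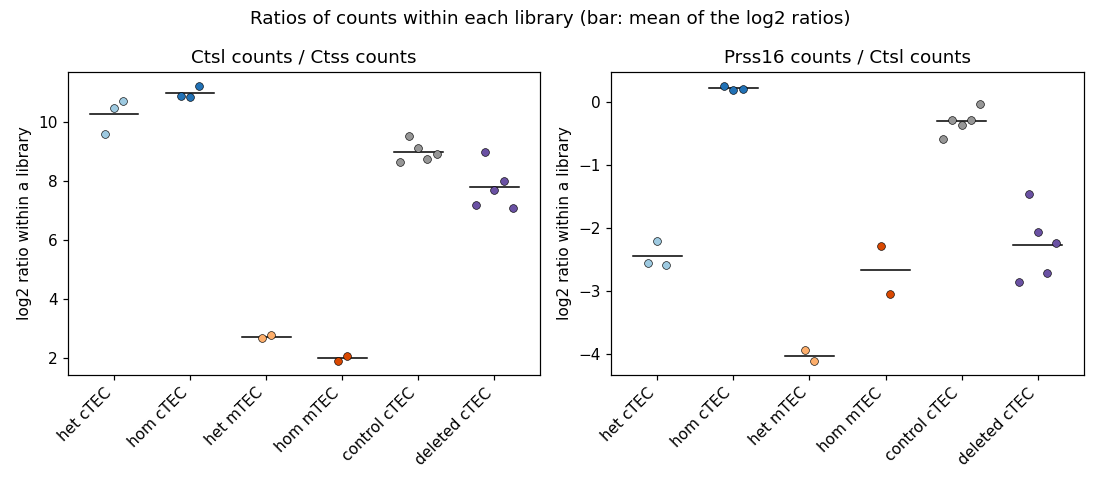
Log2 of the ratio of Ctsl to Ctss counts (left) and of Prss16 to Ctsl counts (right) in each of 20 libraries, with bars for the mean of each group. The 4 mTEC libraries stand at 1.92 to 2.78 for Ctsl over Ctss, below the 16 cTEC libraries, which stand at 7.11 or above.

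The 250 bases before the RefSeq start of Ctss are shown because this gene had one of the widest gaps between cortex and medulla. Those of Ctsd and Ifi30 follow because they share a motif. Capitals mark matches, on either strand, to GACGC, to CACGTG or its longer form TCACGTGA, and to a pair of GAAA parted by any 2 bases.
Ctss, chr3:95526536-95526785, plus strand: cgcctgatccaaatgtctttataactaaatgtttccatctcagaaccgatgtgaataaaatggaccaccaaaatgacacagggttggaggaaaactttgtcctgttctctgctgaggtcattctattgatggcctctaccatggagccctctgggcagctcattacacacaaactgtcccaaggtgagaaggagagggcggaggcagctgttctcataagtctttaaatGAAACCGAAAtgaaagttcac
Ctsd, chr7:142387828-142388077, minus strand: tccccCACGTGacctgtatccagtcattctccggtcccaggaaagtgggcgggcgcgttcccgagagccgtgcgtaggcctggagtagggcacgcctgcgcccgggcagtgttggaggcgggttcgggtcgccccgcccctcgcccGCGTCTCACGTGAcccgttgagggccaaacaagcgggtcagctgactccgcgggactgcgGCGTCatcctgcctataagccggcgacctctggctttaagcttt
Ifi30, chr8:70766664-70766913, minus strand: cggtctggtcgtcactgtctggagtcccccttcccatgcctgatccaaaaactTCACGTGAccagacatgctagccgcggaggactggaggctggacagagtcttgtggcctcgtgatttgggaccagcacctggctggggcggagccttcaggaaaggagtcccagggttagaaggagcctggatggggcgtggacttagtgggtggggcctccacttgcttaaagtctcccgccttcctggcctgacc
Windows that end at the start of the gene's own span were found for 5 of the 9 genes (Ctss, Ctsd, Ctsz, Lgmn and Ifi30). The window listed for Ctsl and a second for Lgmn lie inside the gene and are not described. The 5 were set beside all 32851 windows of the table, which also hold windows at internal starts. GACGC, which holds the ACGC core known for FOXN1, occurred in 22.6% of all windows and ACGC alone in 49.8%. ACGC was present in the windows of Ctsd, Ifi30 and Lgmn, and GACGC in those of Ctsd and Lgmn. A pair of GAAA parted by any 2 bases, the spacing of an interferon-stimulated response element, was present in 2.98% of all windows and, among these 5 genes, in Ctss, as GAAACCGAAA beginning 21 bases before the start. TCACGTGA, a form of the lysosomal gene motif that contains the E-box CACGTG, was present in 0.785% of all windows, and in those of Ctsd and Ifi30. CACGTG was present in 6.02% of all windows, and in those of Ctsd and Ifi30. A match describes the letters and is not a measured site.

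Ctsh and Ctsz encode papain-family exopeptidases: cathepsin H trims peptides from the amino end and cathepsin Z from the carboxy end. Ctsh (chromosome 9, 90054267 to 90076095) was at 297 and 255 CPM in homozygous mTEC and at 133 and 132 CPM in heterozygous mTEC. Its cTEC libraries had 30 to 59 counts in homozygous and 93 to 111 in heterozygous mice, or 1.43 to 2.67 and 4.27 to 5.07 CPM. The compartments thus differed 108-fold in homozygous mice (log2 6.76 ± 0.14, adjusted p = 1.06e-13) and 26.3-fold in heterozygous mice (4.72 ± 0.12, adjusted p = 1.38e-12), the widest gap among the 9 genes in homozygous mice.

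With dose Ctsh moved in opposite directions in the compartments. It was lower in heterozygous mTEC (log2 fold change -1.04 ± 0.11, adjusted p = 5.11e-06) and higher in heterozygous cTEC by 1.00 ± 0.18 (adjusted p = 5.06e-04, and 0.0547 with all 20 libraries in 1 fit). The interaction was -2.04 ± 0.21 log2 (adjusted p = 6.81e-06). Of 13 mTEC markers 7 rose with Ctsh, Ctsz and Ctsb in heterozygous cTEC and 4 fell. They summed to 771 to 958 CPM in heterozygous and 220.1 to 247 CPM in homozygous cTEC. Krt5 made up most of the heterozygous sum (547 of 889 CPM on average). Aire was at 1.42 CPM in heterozygous and 2.25 CPM in homozygous cTEC, and Cd40 at 7.68 and 27.5 CPM. The part of these markers in the rises was not tested. In the deletion set control libraries had 2.78 to 6.26 CPM of Ctsh and deleted libraries 3.83 to 10.96 CPM, which overlapped. No change in Ctsh was called there (0.52, 95% interval -0.16 to 1.21, edgeR adjusted p = 0.379).

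Ctsz (chromosome 2, 174427494 to 174439039) showed the same opposite changes at higher counts. Homozygous mTEC had 318 and 328 CPM and heterozygous mTEC 167 and 156 CPM (log2 fold change -0.98 ± 0.08, adjusted p = 8.57e-07). Homozygous cTEC had 13.4, 13.6 and 12.8 CPM and heterozygous cTEC 35.5, 32.9 and 40.5 CPM (1.32 ± 0.08, adjusted p = 2.93e-08). The groups did not overlap in either compartment, and the interaction was -2.29 ± 0.11 log2 (adjusted p = 1.97e-08). The mTEC excess was 20.6-fold in homozygous and 4.19-fold in heterozygous mice. At 72 h after doxycycline Ctsz was at 17.0 to 39.4 CPM in control and 27.2 to 37.0 CPM in deleted cTEC, with no call (0.21, 95% interval -0.18 to 0.59, adjusted p = 0.544). Here the difference between the deletion and the dose effect was itself called: the change with deletion minus that with dose in cTEC was -1.10 ± 0.24 log2 (adjusted p = 0.00948).

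Ifi30 (chromosome 8, 70762773 to 70766663) encodes GILT, the lysosomal thiol reductase that opens disulfide bonds before proteolysis. It was at 471 and 471 CPM in homozygous mTEC, 432 and 411 CPM in heterozygous mTEC, 156 to 171 CPM in homozygous cTEC and 91.2 to 100.6 CPM in heterozygous cTEC. Its fall with lower dose was called in cTEC (-0.91 ± 0.06 log2, adjusted p = 3.99e-08) and not in mTEC (-0.14, 95% interval -0.28 to 0.01, adjusted p = 0.0985). DESeq2 (-0.26, adjusted p = 5.92e-04), median-ratio size factors (-0.26, adjusted p = 0.00470) and the table without a filter on low counts (-0.19, adjusted p = 0.0392) did call it in mTEC. The fall was larger in cTEC than in mTEC by 0.77 ± 0.09 log2 (interaction, adjusted p = 1.85e-05), and mTEC exceeded cTEC 2.46-fold in homozygous and 4.20-fold in heterozygous mice. Control and deleted cTEC overlapped, at 99.9 to 130.3 and 87.8 to 113 CPM (-0.22, adjusted p = 0.252). The change with deletion minus that with dose in cTEC was 0.70 ± 0.13 log2 (adjusted p = 0.00396).

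Ctsb, Ctsd and Lgmn encode cathepsin B, the aspartic protease cathepsin D and legumain, which cuts after asparagine. Their group means spanned 2.12-fold, 1.58-fold and 2.42-fold over all 6 groups. Ctsb (chromosome 14, 63122462 to 63145923) was lowest in homozygous cTEC at 157, 161 and 155 CPM and highest in homozygous mTEC at 342 and 327 CPM. Like Ctsh and Ctsz it was higher in heterozygous than in homozygous cTEC, by 0.20 ± 0.06 log2 (adjusted p = 0.0148), and lower in heterozygous mTEC (-0.52 ± 0.07, adjusted p = 6.41e-05), with an interaction of -0.72 ± 0.09 (adjusted p = 5.52e-05). The small rise in cTEC lost its call without heterozygous library 1 (adjusted p = 0.0752) or homozygous library 3 (adjusted p = 0.0566), and with all 20 libraries in 1 fit (adjusted p = 0.160).

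Lgmn (chromosome 12, 102394082 to 102439728) was at 67.3 to 72.4 CPM in homozygous and 41.2 to 46.7 CPM in heterozygous cTEC (log2 fold change -0.80 ± 0.07, adjusted p = 1.25e-06). In mTEC it was at 44.1 and 38.4 against 29.5 and 27.8 CPM (-0.50 ± 0.09, adjusted p = 5.02e-04). The interaction was not called for Lgmn (0.30 ± 0.12, adjusted p = 0.0604), though it was without heterozygous cTEC library 1 (0.0278) or homozygous mTEC library 1 (0.0286). With Prss16 and Ctsl it was 1 of the 3 genes lower in mTEC than in cTEC of homozygous mice (-0.99 ± 0.08 log2). Deletion gave 39.3 to 72.5 CPM in control and 53.2 to 70.6 CPM in deleted libraries, with a log2 fold change of 0.02 (95% interval -0.30 to 0.34, adjusted p = 0.948). The change with deletion minus that with dose in cTEC was 0.83 ± 0.20 log2 (adjusted p = 0.0150, and 0.0536 with raw totals).

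Ctsd (chromosome 7, 142375910 to 142387827) was at 175 ± 2.59 CPM in homozygous and 146 ± 6.61 CPM in heterozygous cTEC (SD, n = 3 each), a log2 fold change of -0.39 ± 0.06 by edgeR (SE, adjusted p = 8.89e-05). In mTEC it was at 197 ± 13.8 and 125 ± 2.93 CPM (SD, n = 2 each), a log2 fold change of -0.63 ± 0.07 (edgeR adjusted p = 1.05e-05). The interaction was not called for Ctsd (-0.23 ± 0.09, adjusted p = 0.0548) but was by DESeq2 (-0.36, adjusted p = 0.00144), with median-ratio factors (adjusted p = 0.00585), without a filter (0.0387), with raw totals (0.00311), and without heterozygous cTEC library 2 (0.0216) or homozygous mTEC library 2 (0.0228). Its compartment difference in homozygous mice had no stable direction: -0.08 (adjusted p = 0.275) with TMM scaling, 0.10 (adjusted p = 0.134) with median-ratio size factors and 0.17 (adjusted p = 0.0222) with raw totals. Deleted cTEC had 170.3 to 241 and control cTEC 163 to 192 CPM, with no call (0.16, 95% interval -0.06 to 0.39, adjusted p = 0.405). The change with deletion minus that with dose in cTEC was 0.56 ± 0.15 log2 (adjusted p = 0.0243). That call failed when heterozygous library 2 or 3, or any 1 homozygous cTEC library, was left out (adjusted p from 0.0528 to 0.0720).

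Markers of other cell types moved with several of these genes. Of 21 macrophage and dendritic cell markers present, 20 could be tested. All 20 were higher in mTEC than in cTEC of homozygous mice, where 43.2% of all genes were. In heterozygous mice 18 were higher, where 40.4% of all genes were. The 21 markers summed to 676 to 786 CPM in homozygous and 152 to 153 CPM in heterozygous mTEC. In cTEC they summed to 29.4 to 31.4 CPM in homozygous and 10.6 to 17.8 CPM in heterozygous mice. The genes named next were picked after their values were seen. Lyz2, the lysozyme of myeloid cells, made up most of the sum in homozygous mTEC (507 of 731 CPM on average), and C1qb, the macrophage complement gene, was at 12.5 CPM there against 0.03 CPM in homozygous cTEC. With lower dose 17 of the 20 fell in mTEC, where 30.8% of all genes did, and 4 in cTEC, where 21.9% did. None of the 20 rose, and their median log2 fold change was -1.95 in mTEC and -0.36 in cTEC. B cell markers were higher in mTEC as well, 10 of 10 in both genotypes, at 174 to 175 CPM summed in homozygous and 108 to 117 in heterozygous mTEC and at most 4.76 CPM in transgenic cTEC. Cr2 and Fcer2a made up much of that sum, and Pax5, the factor that defines B cells, was at 1.39 CPM in homozygous mTEC. No macrophage or dendritic cell marker was at 0 in every library of a group, and 2 of the 10 B cell markers were at 0 in each transgenic cTEC group. Endothelial markers were higher in mTEC too, 5 of 7 tested in homozygous and 7 of 7 in heterozygous mice. So were 5 of 5 erythroid markers tested in both genotypes. Whether these markers came from other cells or from mTEC themselves was not tested. Their part in the levels of Ctss, Ctsh, Ctsz and Ifi30 was not tested either.

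**Figure D4:**
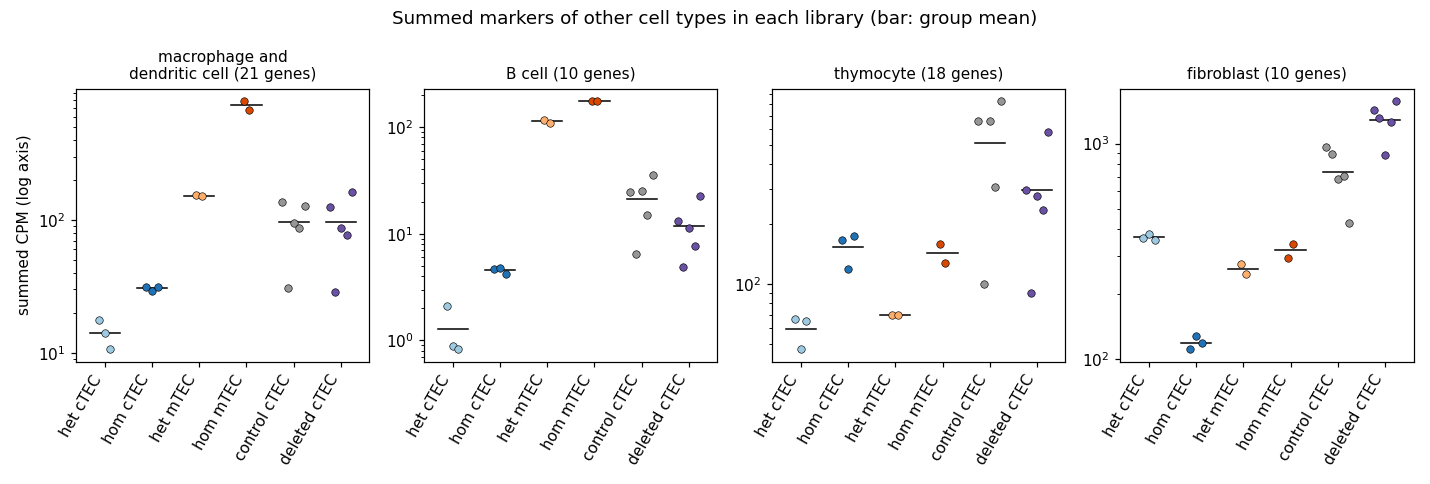
Summed CPM of markers of macrophages and dendritic cells, B cells, thymocytes and fibroblasts in each library, on log axes; points are libraries and bars are group means. Libraries numbered 2 of the deletion set, the second point of each group, are lowest for macrophage, B cell and thymocyte markers in control and in deleted cTEC.

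Ctss followed the sum of the macrophage and dendritic cell list in cTEC. That sum rested largely on Mpeg1 and on Ptprc, which encodes the CD45 of the gate and is not confined to these cells. On average Ptprc and Mpeg1 were at 34.3 and 26.3 of 95.8 CPM in control cTEC. In homozygous cTEC they were at 8.85 and 12.8 of 30.7 CPM. The ratio of Ctss CPM to that sum lay between 0.0647 and 0.134 in all 16 cTEC libraries, although Ctss itself ranged from 0.688 to 17.2 CPM among them. The ratio was 0.545 to 0.564 in heterozygous and 0.284 to 0.285 in homozygous mTEC, above every cTEC library. Ctsh had a ratio of 0.868 to 0.871 in heterozygous and 0.378 to 0.379 in homozygous mTEC, against 0.0356 to 0.134 in cTEC of the deletion set and 0.0455 to 0.0910 in homozygous cTEC, but 0.285 to 0.401 in heterozygous cTEC. Ctsz and Ifi30 were not in a fixed ratio to the sum in cTEC, at 0.133 to 3.80 and 0.701 to 8.63. These ratios were chosen after the values were seen and are given without a test.

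**Figure D5:**
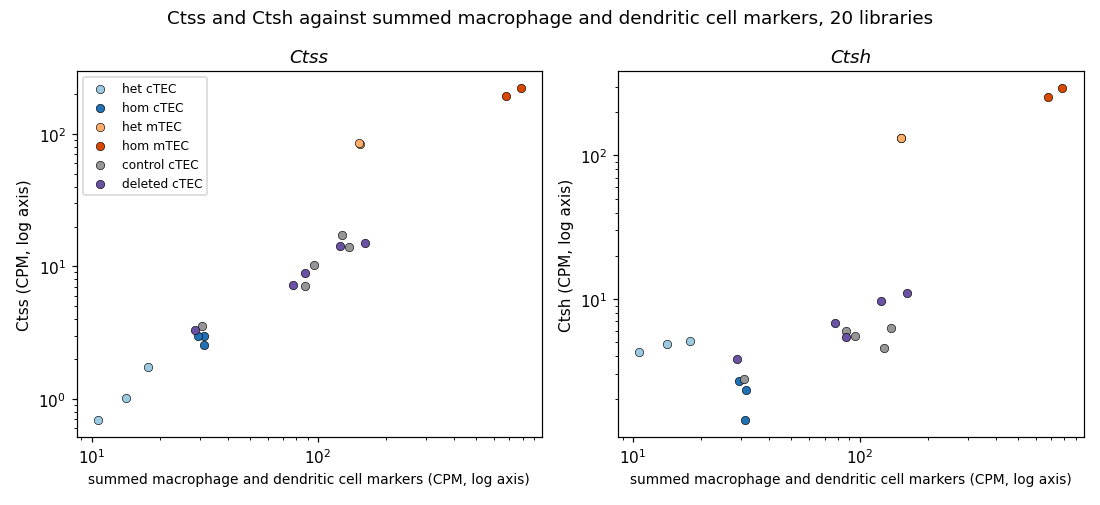
CPM of Ctss (left) and Ctsh (right) against the summed CPM of 21 macrophage and dendritic cell markers in each of 20 libraries, log axes. In the left panel the 16 cTEC libraries lie along 1 diagonal and the 4 mTEC libraries lie above it; Ctss counts in heterozygous cTEC were 15 to 38 per library.

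In the deletion set the same marker sum did not part the groups, at 30.8 to 137 CPM in control and 28.7 to 161 in deleted cTEC, with 0 of 16 markers called by edgeR or by DESeq2 and 0 at an unadjusted p under 0.05. Thymocyte markers summed to 100.2 to 830 CPM in control and 90.1 to 578 in deleted cTEC (0 of 17 called by edgeR, 1 at an unadjusted p under 0.05, 1 called by DESeq2, median -0.83), and fibroblast markers to 428 to 964 and 886 to 1574 CPM (0 of 10 called, 1 at an unadjusted p under 0.05, 1 called by DESeq2, median 0.71). Among cTEC markers other than these enzymes 4 of 11 fell with deletion by edgeR, and none rose (median of the 11, -0.85). The 4 were Tbata, the chemokine gene Ccl25, the Notch ligand gene Dll4 and the endocytic receptor gene Ly75. At an unadjusted p under 0.05 there were 9 of the 11, and DESeq2 called 7 lower. In the transgenic set 11 of 11 cTEC markers were lower in heterozygous than in homozygous cTEC (median -1.54), as were 17 of 18 thymocyte markers. Of 13 mTEC markers 7 were higher in heterozygous cTEC and 4 lower (median 1.00). Of all genes tested 21.9% were lower there and 20.9% higher. The mTEC markers summed to 771 to 958 CPM in heterozygous and 220.1 to 247 CPM in homozygous cTEC, and the fibroblast markers, 5 of 10 higher and 1 lower, to 359 to 382 and 111 to 128 CPM. The part of any of these in the falls of Prss16 and Ctsl was not tested.

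The other genes of the pathway were taken as 4 lists: further lysosomal proteases, protease inhibitors, class II chains and loading factors, and other lysosomal genes. Of 14 further proteases 3 fell and 5 rose with lower dose in cTEC (median log2 fold change -0.16), and 9 fell and 1 rose in mTEC (median -0.43). Of all genes tested 21.9% fell and 20.9% rose in cTEC, and 30.8% fell and 28.9% rose in mTEC. Ctsa, the carboxypeptidase cathepsin A, fell from 405 to 159 CPM in cTEC (-1.48), while the cysteine protease gene Ctsf rose by 0.66. In mTEC the aminodipeptidase gene Ctsc was at 66.9 CPM in heterozygous and 194 CPM in homozygous mice (-1.51). In homozygous mice 9 of the 14 were higher and 3 lower in mTEC than in cTEC (median 1.94), and in heterozygous mice 8 and 3 (median 0.76). Over all genes tested those 2 medians were 0.04 and 0.09. Of all genes 43.2% were higher and 39.4% lower in homozygous mTEC, and 40.4% and 31.6% in heterozygous mTEC.

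Of 13 inhibitors 5 fell with lower dose in cTEC (median -0.36), where 42.8% of all genes were called, and 12 fell in mTEC (median -1.51), where 59.7% were. None rose in either compartment. Cstb, which encodes the cathepsin inhibitor stefin B, fell from 777 to 206 CPM in cTEC (-2.05), and Cst6, which encodes cystatin M, had a log2 fold change of -3.07 in cTEC and -2.91 in mTEC. Between compartments 11 inhibitors were higher and 1 lower in mTEC of homozygous mice, and 8 and 3 of heterozygous mice. Of all genes 43.2% were higher and 39.4% lower in homozygous mTEC, and 40.4% and 31.6% in heterozygous mTEC. Cstb was lower in mTEC of both genotypes (-2.37 and -1.16). Serpinb1a, a serpin gene, was at 737 CPM in homozygous mTEC and 21.5 CPM in homozygous cTEC (4.85).

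Of 17 class II chain and loading genes 11 fell and 2 rose with lower dose in cTEC (median -0.26), and 12 fell and 3 rose in mTEC (median -0.79). Cd83, whose product keeps class II at the surface, had a log2 fold change of -4.13 in cTEC, and Cd74, the invariant chain that these enzymes cut, one of -0.58. H2-Ob, the chain of an inhibitor of peptide loading, rose by 1.19 in cTEC and fell by 1.96 in mTEC. Between compartments 9 of the 17 were higher and 7 lower in mTEC of homozygous mice (median 0.52), and 8 and 7 of heterozygous mice (median -0.10). Among 43 other lysosomal genes 25 fell and 7 rose with lower dose in cTEC (median -0.25), and 21 fell and 4 rose in mTEC (median -0.17). Between compartments 19 were higher and 17 lower in homozygous mTEC (median 0.08), and 17 and 14 in heterozygous mTEC (median 0.10). Of all genes tested 42.8% were called with dose in cTEC and 59.7% in mTEC. Between compartments 82.6% of all genes were called in homozygous and 72.0% in heterozygous mice. The proton pump subunit gene Atp6v0a1 was at 52.2 CPM in heterozygous and 236 CPM in homozygous cTEC (-2.31), and Laptm5, a lysosomal membrane gene of blood cells, was higher in homozygous mTEC by 6.58.

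At 72 h after doxycycline each of these lists held a single called gene, lower in deleted cTEC, in a comparison that called 1.97% of all genes. When 1 library was left out, the count of lower genes went to 0 in 5 of 10 fits for the proteases, 2 for the inhibitors, 1 for the class II genes and 8 for the lysosomal genes. The lysosomal count was 7 without control library 2 and 6 by DESeq2. Ctsa was at 213 CPM in control and 106 CPM in deleted libraries on average (-1.03 ± 0.17, edgeR adjusted p = 0.0179, 1 of 12 proteases tested). Cstb was at 509 and 122 CPM (-2.11 ± 0.32, adjusted p = 0.0116, 1 of 9 inhibitors). Cd83 was at 392 and 52.9 CPM (-2.94 ± 0.40, adjusted p = 0.00934, 1 of 16 class II genes). Mitf, which encodes a transcription factor tied to lysosomal genes, was at 21.2 and 13.2 CPM (-0.71 ± 0.16, adjusted p = 0.0451, 1 of 42 lysosomal genes). The median log2 fold change was 0.23 for the proteases, 0.01 for the inhibitors, 0.08 for the class II genes and -0.02 for the lysosomal genes.

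The genes whose pattern over the 20 libraries was most like that of each enzyme were ranked by the root mean square of the log2 differences after centring, among 16735 genes. For Prss16 they were Crip3 (0.64), Cd83 (0.79) and Galr2 (0.93), and for Ctsl Ndrg3 (0.29), Akap12 (0.33) and Oma1 (0.38). For Ctss they were Ccdc88b (0.42), Inpp5d (0.43) and Pglyrp2 (0.45), of which Inpp5d, the phosphatase SHIP1, is known from blood cells. For Ctsh they were Muc1 (0.33), Car2 (0.39) and L1cam (0.41), for Ctsz Mlph (0.28), Cntnap2 (0.31) and Prlr (0.32), and for Ifi30 Dennd4a (0.19), Lrrc42 (0.21) and Bmp2k (0.21). Among the 9 enzymes themselves Ctsb and Ctsd were closest (0.32), Ctss and Ctsh differed by 1.04, and Prss16 and Ctsh were farthest apart (4.42). These likenesses share libraries and compartments and are descriptions.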

How the data were processed

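The authors deposited 1 table of whole-number read counts per gene for the 20 RNA libraries, and the counts were used as deposited. Per the submitters' processing notes the tools of the series included TopHat2 2.0.10 and featureCounts and the build was mm10; the sources used here name no settings, annotation or use of strand, so overlapping genes cannot be told apart. CPM were computed here from raw totals. Tests were by edgeR 4.0.16 (quasi-likelihood test, TMM factors, filterByExpr at 10 counts, Benjamini-Hochberg adjustment over all genes tested, threshold 0.05). It was fitted to the 10 transgenic libraries and, separately, to the 10 deletion libraries. For deletion against dose it was fitted to all 20 libraries, mTEC included. The tests were checked on simulated counts. The 9 genes and the lists were chosen with earlier results of these data known. All 9 genes were named; from each list up to 2 genes of smallest adjusted p per direction and comparison could be named, and the 3 genes nearest in pattern for enzymes whose group means spanned over 2 log2 units. Alternatives were DESeq2, median-ratio factors, no factors, no filter, 1 fit of all 20 libraries, a replicate block and leaving out each library. Promoters were RefSeq windows (GRCm38.p6). The ChIP, input and ATAC data were not used here.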

Additional observations from a re-analysis of the deposited data

Results flagged for a closer look

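For 6 of the 9 genes the change with transgene dose differed between cTEC and mTEC by edgeR's interaction test, in which 42.5% of all genes were called. The difference, as the mTEC minus the cTEC log2 fold change, was 2.95 for Prss16, 1.72 for Ctsl and 0.77 for Ifi30, which fell more in cTEC. It was -0.72 for Ctsb, -2.04 for Ctsh and -2.29 for Ctsz, which were lower in heterozygous mTEC and higher in heterozygous cTEC. Ctsd, not called there at -0.23, was called by DESeq2 and with 3 other settings.

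For 4 genes the change with deletion differed from the change with dose in cTEC, where 6.67% of all genes were called. The difference, as the deletion minus the dose log2 fold change, was 0.56 for Ctsd, 0.83 for Lgmn, 0.70 for Ifi30 and -1.10 for Ctsz. None of the 4 was called with deletion alone.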

How the results depend on the processing

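Prss16 kept its called fall with deletion without any 1 of the 10 libraries, while the fall of Ctsl lost its call without 7 of them. Genes called when 1 library was left out ranged, for the 9 enzymes and for all genes, from 1 to 2 and 27 to 920 for deletion, 3 to 6 and 793 to 2179 for deletion against dose, 6 to 7 and 6721 to 8175 for the interaction, and 8 to 9 and 7116 to 7780 for dose in cTEC. They ranged from 8 to 8 and 9282 to 10476 for dose in mTEC, 7 to 9 and 12023 to 13759 for the compartments in heterozygous mice, and 8 to 8 and 15356 to 15547 in homozygous mice. Uncalled log2 differences that changed sign ranged from -0.37 to 0.14 for Ctss and -0.081 to 0.093 for Lgmn with deletion, from -0.039 to 0.10 for Ctsb in deletion against dose, and from -0.13 to 0.60 for Ctss in the interaction. The value for Ctsb in deletion against dose was -0.094 with raw totals against 0.029. Ctsd between the homozygous compartments, at -0.08, was at 0.019 with all 20 libraries in 1 fit, 0.10 by DESeq2, 0.10 with median-ratio factors and 0.17 with raw totals; the cause was not tested.

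Over all genes, 300 were called with deletion, against 1541 with all 20 libraries in 1 fit, 1064 by DESeq2 and 474 without both libraries numbered 2, a setting chosen after seeing the data, as were raw totals. Deletion against dose called 1309 genes, and 1965 by DESeq2. With all 20 libraries in 1 fit the calls went from 8162 to 4141 for the interaction, 8225 to 4862 for dose in cTEC and 11472 to 6821 for dose in mTEC. The share of calls that were lower went with raw totals from 51.1% to 32.5% for dose in cTEC, from 47.7% to 37.5% for the homozygous compartments, from 40.6% to 57.01% for the interaction and from 52.9% to 70% for deletion against dose. It went from 51.6% to 64.4% for dose in mTEC with median-ratio factors, and from 85.7% to 72.3% for deletion by DESeq2.

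Library numbers did not meet the rule for pairing: same-numbered control and deleted libraries correlated at 0.0853 to 0.754, over 0.1 in 4 of 5 pairs, and 8 of 10 libraries correlated best with their own number. With the number as a replicate block 1220 genes were called with deletion and 2659 in deletion against dose. The block called 7 of the 9 enzymes in deletion against dose, against 4 without it, adding Prss16 (1.63, adjusted p = 0.0257), Ctsl (0.96, adjusted p = 0.0346) and Ctss (1.34, adjusted p = 0.00109), and added Ifi30 for deletion (-0.22, adjusted p = 0.0481). It also called 6 of the 17 thymocyte markers lower with deletion, against 0 without it, and 5 of the 42 lysosomal genes, against 1.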

Other observations

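Laptm5, a lysosomal membrane gene known from blood cells, was at 760.5 CPM in heterozygous and 715 CPM in homozygous mTEC, with no called change with dose (0.11 ± 0.11 SE, edgeR adjusted p = 0.409). In the same libraries the macrophage and dendritic cell markers summed to 152 to 153 and 676 to 786 CPM. In cTEC Laptm5 was at 1.27 CPM in heterozygous and 6.31 CPM in homozygous mice (-2.44 ± 0.20, adjusted p = 4.28e-07).

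The ratio of Ctsl to Ctsb counts was 34.4 to 39.9 in homozygous cTEC and 5.62 to 7.98 in heterozygous cTEC. It was 2.35 to 2.56 in heterozygous and 2.48 to 2.50 in homozygous mTEC, where these ranges overlapped. Control cTEC ranged from 10.1 to 44.8 and deleted cTEC from 6.01 to 7.53, with no overlap.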
